A study of Rattus norvegicus with 6 samples.

Results

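The genes described here are 10 genes that mark principal cells, the water- and sodium-reabsorbing cells of the kidney collecting duct, or that carry out their transport: the aquaporins Aqp2, Aqp3 and Aqp4, the vasopressin receptor Avpr2, the sodium channel subunits Scnn1a, Scnn1b and Scnn1g, the steroid enzyme Hsd11b2, the pump regulator Fxyd4 and the transcription factor Gata3. They were taken as a set, and array probes were assigned to them through the RefSeq accession that each probe carries. Of the 10, 9 had probes, 19 in all, among 15645 genes named in the same way. No probe was matched to Fxyd4, which was not analysed here.

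Renal cortex of 6 male Sprague-Dawley (Crl:CD(SD)) rats was measured, with 1 single-colour Agilent array per animal. The vehicle group was 3 rats given corn oil for 4 weeks, and the treated group was 3 rats given p-nitroanisole, a nitrobenzene with a methoxy group, at 500 mg/kg per day for 4 weeks. All animals were bought at 5 weeks of age and kept on a basal diet. The route of dosing is not given in the sources used here.

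Principal cells sense vasopressin through the receptor encoded by Avpr2, which raises cyclic AMP and drives the water channel Aqp2 into the apical membrane, while Aqp3 and Aqp4 let the water leave on the basolateral side. Sodium enters the same cells through the epithelial sodium channel, assembled from the alpha, beta and gamma subunits encoded by Scnn1a, Scnn1b and Scnn1g, and aldosterone raises its activity. Hsd11b2 inactivates glucocorticoids and so keeps the mineralocorticoid receptor open to aldosterone.

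Values are given as relative intensity, the background-subtracted intensity of a probe divided by the 75th percentile of its array. It compares 1 probe between animals and has no meaning between probes. Differences are on the log2 scale, treated minus vehicle, each with a standard error (SE) and with the adjusted p of limma's moderated test (Benjamini-Hochberg over all 32197 rows tested, 3 arrays per group, threshold 0.05). Of the arrays, 5 were on slide 1 and treated rat 3 was on slide 2. The vehicle arrays and treated rat 3 occupied row 1 of a slide, and treated rats 1 and 2 row 2. No treated array thus shared both slide and row with a vehicle array, so treatment and array position cannot be told apart. Well above background were 66.4% to 69.2% of an array's 61537 probes, and no spot was saturated. All 9 members with probes were well above background on all 6 arrays, as were all 13 proximal tubule markers. In whole tissue, fewer principal cells and less RNA per principal cell cannot be told apart.

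None of the 9 members was called (0 of 9 by limma; of all rows 0.0745% were called, 0.0248% lower and 0.0497% higher), with adjusted p from 0.117 for Avpr2 to 0.799 for Scnn1a. At an unadjusted p under 0.05 there were 2, Avpr2 and Scnn1b, both lower with treatment (of all rows 5.76% were lower at that level and 13.4% passed it in either direction). That count was 4 without vehicle rat 1, with median scaling and with a trended robust variance. Of all 32197 rows, 3404, 4721 and 4514 passed that level in those fits in either direction, against 4329 as reported. The member count was 1 without vehicle rat 2, treated rat 2 or treated rat 3, where 3262, 4239 and 4361 rows passed. It was also 1 with the replicate block (3820 rows) and with the mean of each gene's probes (4341 rows). The number of all rows passing thus moved with the fit as well. The log2 difference was below 0 for 8 of the 9 (47.6% of all rows; 59.8% with each array scaled to its median, where 8 of 9 were also below 0) and above 0 for Aqp4. The median over the 9 was -0.17, against 0.01 over all rows. In 4 members, Avpr2, Scnn1b, Scnn1g and Gata3, all treated arrays lay below all vehicle arrays, as in 10.3% of all rows, and in no member did all treated arrays lie above (22.2% of all rows had no overlap in either direction). The members were chosen with earlier results of these arrays known, so these counts describe the set.

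**Figure D1:**
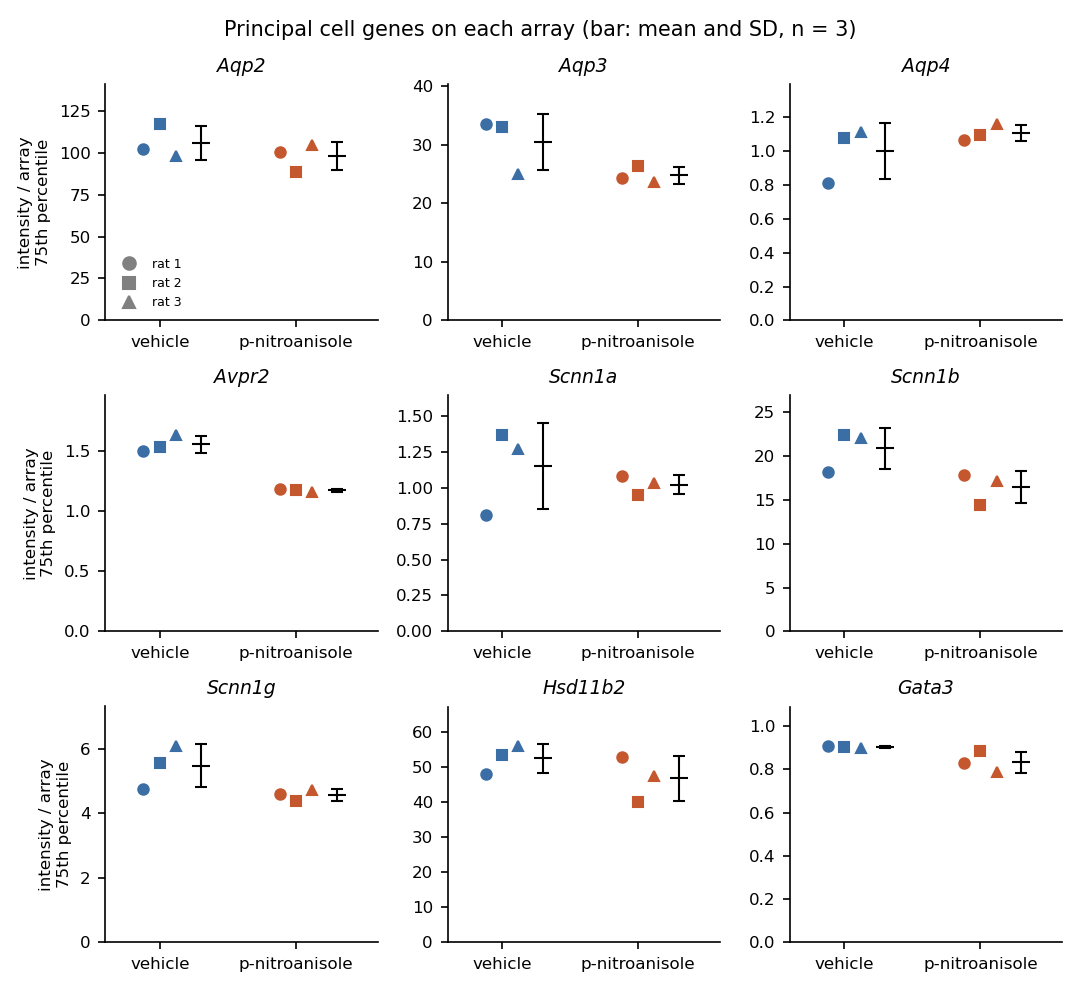
Relative intensity (linear axis from 0, intensity divided by the array's 75th percentile) of the probe standing for each of the 9 measured members on each array, with vehicle in blue and p-nitroanisole in orange, marker shapes for rats 1 to 3 and black bars for the mean and SD (n = 3). Avpr2 shows the clearest gap, 1.499 to 1.63 in vehicle rats against 1.16 to 1.19 in treated rats, while the groups of Aqp2, Aqp3, Aqp4, Scnn1a and Hsd11b2 overlap.

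Avpr2, the receptor of vasopressin, had a relative intensity of 1.499, 1.54 and 1.63 in vehicle rats 1, 2 and 3 and of 1.19, 1.17 and 1.16 in treated rats 1, 2 and 3. All 3 treated rats lay below all vehicle rats, and the spread within each group was small beside the gap. The log2 difference was -0.41 (SE 0.06, n = 3 per group, limma adjusted p = 0.117), a level 1.33-fold lower with treatment, and the row ranked number 212 of 32197 by p. The second Avpr2 probe gave 1.33, 1.43 and 1.49 in vehicle rats and 1.11, 1.09 and 1.13 in treated rats, again without overlap, and a log2 difference of -0.35 (SE 0.07). The difference was -0.40 within slide 1, which leaves treated rats 1 and 2, and -0.42 within row 1, where treated rat 3 alone stands against the vehicle rats. With a trended robust variance limma called Avpr2 (adjusted p = 0.0443), while over the 18 alternatives its adjusted p ran from 0.0443 to 0.340.

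The stretch of 250 bases before the RefSeq start site is shown for Avpr2, the member with the smallest p, and for Aqp2, the water channel that its signal controls, so that the flanks of receptor and channel can be read side by side (RefSeq, build GRCr8, chrX:156784889-156785138 and chr7:132590036-132590285, both on the plus strand). Of the 10 members, 8 had a window in the RefSeq promoter table, and Aqp4 had 2, so that 9 member windows were searched. Capitals mark matches, on either strand, to any of 7 motifs: the cyclic AMP response element TGACGTCA, its shorter form TGACG, the GATA motif AGATAA, the HNF1 motif GTTAAT, the corticosteroid receptor motif TGTTCT, the AP-2 motif GCCNNNGGC and the ETS motif CCGGAAGT. The first of these motifs contains the second. The shorter cyclic AMP form, the HNF1 motif and the corticosteroid receptor motif are each only a part of the full element. The start site is that of the promoter table; the RefSeq gene records of Avpr2 and, of Scnn1b, shown with its channel partners, begin inside the stretch shown.
Avpr2: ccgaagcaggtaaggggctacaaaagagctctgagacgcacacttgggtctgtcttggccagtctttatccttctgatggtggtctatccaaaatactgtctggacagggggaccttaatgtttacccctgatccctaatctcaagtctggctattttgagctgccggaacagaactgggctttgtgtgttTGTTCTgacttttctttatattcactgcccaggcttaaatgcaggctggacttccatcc
Aqp2: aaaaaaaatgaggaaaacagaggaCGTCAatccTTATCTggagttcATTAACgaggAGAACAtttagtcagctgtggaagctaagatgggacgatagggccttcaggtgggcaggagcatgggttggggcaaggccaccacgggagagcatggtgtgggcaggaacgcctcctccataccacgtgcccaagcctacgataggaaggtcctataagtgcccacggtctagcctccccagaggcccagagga

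The Aqp2 window held 4 of the 7 motifs, all between positions -226 and -189 from the start site: the shorter cyclic AMP motif, the GATA motif, the HNF1 motif and the corticosteroid receptor motif. Of all 33469 promoter windows of 300 bases (250 before the start site and 50 from it on), 0.269% held at least 4 of the 7. The Aqp2 count was the highest of the 9 member windows searched, so that share describes the richest window. Singly, the 4 motifs were found in 21.2%, 11.6%, 7.45% and 20.7% of all windows. The Avpr2 window held 1 of the 7, the corticosteroid receptor motif at -59 to -54, and 59.7% of all windows held at least 1. The Gata3 window also held 1, and those of Fxyd4, Aqp3 and Aqp4 held 0. The full cyclic AMP element (1.83% of all windows) and the ETS motif (3.81%) were not found in any member's window. A match is a run of letters and not evidence of a bound site.

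Aqp2, the vasopressin-regulated water channel of the apical membrane, had a relative intensity of 102, 117 and 98.0 in vehicle rats and of 101, 88.4 and 105 in treated rats on the brighter of its 2 probes. The groups overlapped, treated rat 2 being the lowest of all and treated rat 3 above vehicle rats 1 and 3. On the log2 scale the difference was -0.11 (SE 0.10, limma adjusted p = 0.670). The second probe ran the other way, at 12.3, 13.4 and 11.9 in vehicle rats and 14.2, 11.4 and 17.0 in treated rats, with a log2 difference of 0.16 (SE 0.15). Averaged over both probes the difference was 0.03, so these arrays give no direction for Aqp2. Treated rat 2 had the lowest value on either probe.

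Aqp3, the basolateral water and glycerol channel, was measured by 1 probe at 33.6, 33.0 and 25.0 in vehicle rats and at 24.3, 26.4 and 23.7 in treated rats. Vehicle rat 3 lay among the treated rats, and vehicle rats 1 and 2 lay above all others. Treated minus vehicle, the log2 difference was -0.29 (SE 0.13, limma adjusted p = 0.415), which was -0.43 without vehicle rat 3 and -0.21 without vehicle rat 1.

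Aqp4, the other basolateral water channel, also known from glia, had 6 probes, of which 4 were tested. The brightest gave 0.809, 1.08 and 1.11 in vehicle rats and 1.07, 1.09 and 1.16 in treated rats. Vehicle rat 1 was the lowest array, and the other 5 lay close together. Its log2 difference was 0.16 (SE 0.14, limma adjusted p = 0.629), and it was 0.02 without vehicle rat 1. Of the other tested probes, 2 were higher with treatment, at 0.27 (SE 0.14) and 0.29 (SE 0.18), and 1 was lower, at -0.25 (SE 0.07), with all treated arrays below all vehicle arrays on it. The probes of Aqp4 thus disagreed in direction, the 1 lower probe being the dimmest tested (relative intensity 0.0280 to 0.0358 over the 6 arrays). The remaining 2 probes were well above background on 2 and 0 of the vehicle arrays and on 0 treated arrays.

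**Figure D2:**
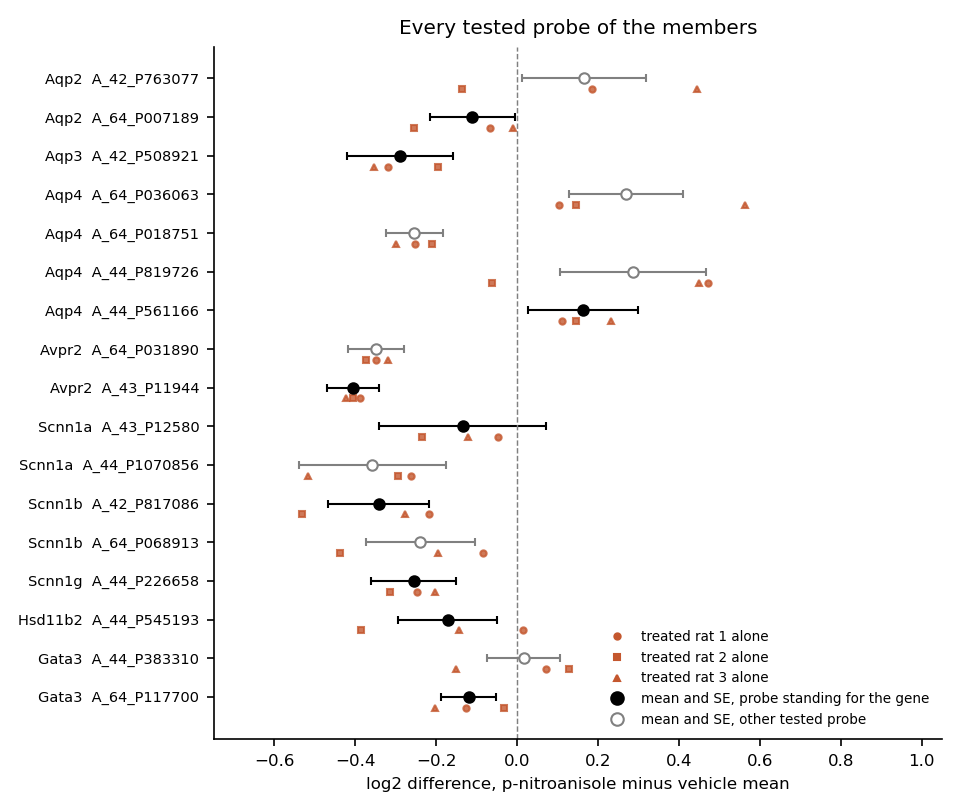
Log2 difference (horizontal axis) of every tested probe of the members, 17 probes, with black filled points for the probe standing for the gene, open points for other probes, bars for the limma SE (n = 3 per group) and small orange markers for each treated rat minus the vehicle mean. Both Avpr2 probes lie at -0.35 and -0.41 with the 3 rats close together, and the 2 Aqp2 probes fall on opposite sides of 0.

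Taken by probe, 12 of the 17 tested probes had a difference below 0, and on 6 of the 17 all treated arrays lay below all vehicle arrays. Over all 41219 tested probes these shares were 48.3% and 10.4%. Of the 6 members with more than 1 tested probe, Avpr2, Scnn1a and Scnn1b had both probes below 0, and Aqp2, Aqp4 and Gata3 had probes on both sides of 0.

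The subunits of the epithelial sodium channel were all lower in the mean, and none was called. Scnn1b, the beta subunit, had a relative intensity of 18.2, 22.4 and 22.0 in vehicle rats and of 17.8, 14.4 and 17.1 in treated rats. The treated rats lay below the vehicle rats without overlap, although vehicle rat 1 and treated rat 1 were close. Scnn1b differed by -0.34 (SE 0.13, limma adjusted p = 0.333), 1.27-fold lower with treatment. The second Scnn1b probe gave 2.32, 3.01 and 2.69 in vehicle rats and 2.51, 1.96 and 2.32 in treated rats, which overlap, and a difference of -0.24 (SE 0.14).

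Scnn1g, the gamma subunit, had a relative intensity of 4.76, 5.57 and 6.09 in vehicle rats and of 4.59, 4.38 and 4.73 in treated rats on its 1 probe. Treated rat 3 lay just under vehicle rat 1, so that the groups did not overlap by a narrow margin. Its log2 difference was -0.26 (SE 0.11, limma adjusted p = 0.376). It was -0.35 without vehicle rat 1 and -0.17 without vehicle rat 3.

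Scnn1a, the alpha subunit that the channel needs for conduction, had a relative intensity of 0.808, 1.37 and 1.27 in vehicle rats and of 1.08, 0.951 and 1.03 in treated rats. Vehicle rat 1 was the lowest of the 6 and vehicle rats 2 and 3 the highest, so the treated rats lay inside the vehicle range. Scnn1a differed by -0.13 (SE 0.21, limma adjusted p = 0.799), a value that rests on vehicle rats 1 and 2: without rat 1 it was -0.37 and without rat 2 it was 0.01. The second probe showed the same low vehicle rat 1, at 0.0842 against 0.127 and 0.126, with treated rats at 0.0921, 0.0901 and 0.0773 and a difference of -0.36 (SE 0.18).

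Scnn1b and Scnn1g are neighbours on chromosome 1, and these were the subunits without overlap between the groups. The 250 bases before the start site of the promoter table are therefore shown for both (RefSeq, build GRCr8, chr1:185861126-185861375 and chr1:185735975-185736224, both on the plus strand). As given above, the gene record of Scnn1b begins inside its stretch. Capitals mark motif matches as above.
Scnn1b: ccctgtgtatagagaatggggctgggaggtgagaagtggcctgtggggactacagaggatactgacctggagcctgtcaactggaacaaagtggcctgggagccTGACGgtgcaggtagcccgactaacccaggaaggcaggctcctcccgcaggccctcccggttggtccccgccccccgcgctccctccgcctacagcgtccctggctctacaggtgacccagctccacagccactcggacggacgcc
Scnn1g: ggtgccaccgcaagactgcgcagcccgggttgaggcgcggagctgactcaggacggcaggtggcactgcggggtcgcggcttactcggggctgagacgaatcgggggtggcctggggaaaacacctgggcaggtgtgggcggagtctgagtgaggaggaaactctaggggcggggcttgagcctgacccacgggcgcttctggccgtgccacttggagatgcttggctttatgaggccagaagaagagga

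G and C made up 65.6% of each stretch, against 48.0% for Avpr2 and 54.4% for Aqp2. The other members' stretches ran from 44.8% (Aqp4) to 68.4% (Gata3), with Aqp3 at 65.2%. The share over all promoters was not computed. The Scnn1b window held the shorter cyclic AMP motif at -146 to -142, and the Scnn1g window held 0 of the 7 motifs. In neither of these windows was the corticosteroid receptor motif found within the 300 bases searched.

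Hsd11b2, which protects the mineralocorticoid receptor from glucocorticoids, had a relative intensity of 48.2, 53.4 and 56.2 in vehicle rats and of 53.0, 40.2 and 47.5 in treated rats. Treated rat 2 was the lowest and treated rat 1 lay inside the vehicle range. The log2 difference was -0.17 (SE 0.12, limma adjusted p = 0.578), and it ran from -0.26 to -0.06 when single arrays were left out. Gata3, a transcription factor needed for growth of the ureteric bud and still made in the collecting duct, had a relative intensity of 0.908, 0.904 and 0.898 in vehicle rats and of 0.828, 0.884 and 0.786 in treated rats. All treated rats lay below the tightly grouped vehicle rats, with treated rat 2 nearest to them. The log2 difference was small, -0.12 (SE 0.07, limma adjusted p = 0.500), and the second Gata3 probe overlapped between the groups at 0.02 (SE 0.09). Gata3 stood at -0.08 without treated rat 3, at -0.20 within row 1 and at -0.05 as the mean of its probes.

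The animals differed across several members at once. Relative to the vehicle mean of each gene, the median over the 9 members was -0.12 in vehicle rat 1, 0.11 in vehicle rat 2 and 0.08 in vehicle rat 3, and -0.13, -0.25 and -0.20 in treated rats 1, 2 and 3. Vehicle rat 1 was thus level with treated rat 1, and without it the median log2 difference of the set was -0.23 in place of -0.17; without treated rat 1 it was -0.26. Vehicle rat 1 was also the lowest vehicle rat for the thick limb markers (-0.16 against 0.03 and 0.12) and for the medulla markers (-0.18 against 0.11 and 0.04), and the part of this in the members' values was not tested.

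**Figure D3:**
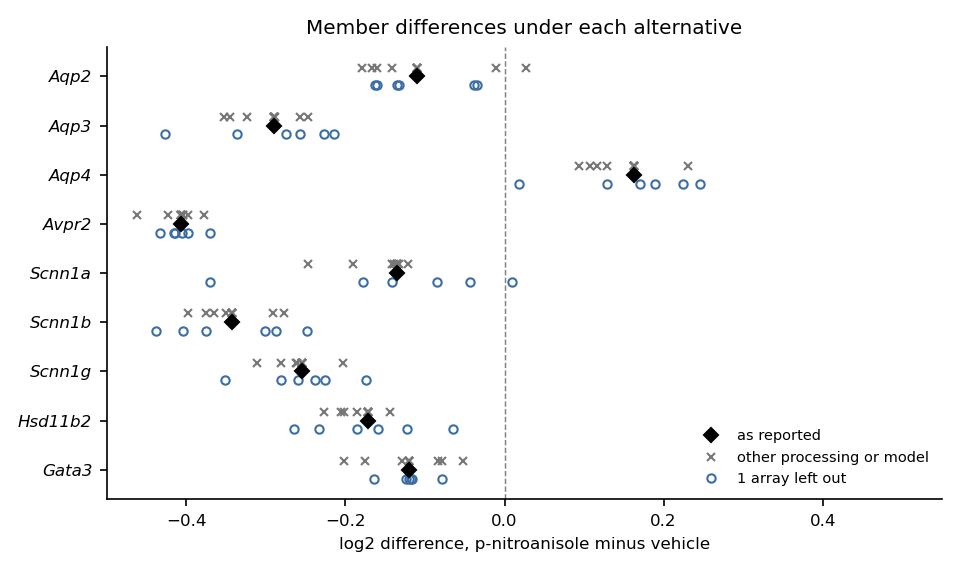
Log2 difference of each member (horizontal axis) as reported (black diamonds), under 12 other processing choices or models (grey crosses) and with 1 array left out (blue circles, 6 per gene). Avpr2 stays between -0.46 and -0.37, whereas Aqp2 and Scnn1a reach 0.03 and 0.01.

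Of the 18 alternatives, 5 cannot move a log2 difference, since they alter only the spread or the rows tested, and the slide block repeats the fit without treated rat 3. Of the other 12, the series matrix nearly repeats the reported scaling. Its constants, 879 to 1024, lie close to the arrays' 75th percentiles, 877 to 1022. Median scaling moves all members by the same amount. Among the 12 the sign turned for Aqp2 and Scnn1a, as already given. With few rows called in any fit without 1 array, the side of the threshold says little about the members. Within slide 1 and within row 1 the same count, 8 of 9, was below 0, with medians of -0.18 and -0.20. Within slide 1 the groups differ in row, and within row 1 they differ in slide, so neither separates treatment from array position.

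Around the members, 12 further lists of kidney genes were read from the same fit, some sharing a gene (Aqp1, Aqp6 and Kcnj1 each stand in more than 1). None of their genes was called by limma, and their counts and medians carry no test against the members. Of the 24 genes of vasopressin signalling and aquaporin trafficking, all tested, 16 were below 0 and 8 above, with a median of -0.04. The largest differences were those of Prkar2b, a regulatory subunit of protein kinase A, at 0.60 (SE 0.23, adjusted p = 0.354), and Crem, a cyclic AMP-responsive transcription factor, at 0.39 (SE 0.12, adjusted p = 0.269), with treated rats at 3.48, 4.23 and 3.72 above the vehicle rats at 3.18, 3.00 and 2.55. At an unadjusted p under 0.05 there were 4 genes, Crem, Prkar2b and Prkar2a higher (7.69% of all rows were higher at that level) and Creb1 lower. The stimulatory G protein gene Gnas and the adenylyl cyclase gene Adcy6, which link the receptor to cyclic AMP, differed by 0.04 (SE 0.06) and -0.10 (SE 0.08).

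Of the 18 tested genes of aldosterone action and sodium channel regulation, 11 were below 0, with a median of -0.04. The direction of this list was not stable. Without vehicle rat 2, 9 were below 0 with a median of 0.01 (all rows 0.01, 48.1% below 0). With normexp 8 were, with a median of 0.01 (all rows 0.03, 40.5% below 0). With median scaling 13 were, with a median of -0.10 (all rows -0.04, 59.8% below 0). With normexp and with median scaling the median of all rows thus moved the same way as that of the list. An unadjusted p under 0.05 was found for 1 gene (13.4% of all rows passed that level in either direction). This was Sgk1, the aldosterone- and glucocorticoid-induced kinase that keeps the sodium channel at the membrane, with a relative intensity of 7.74, 13.3 and 5.10 in vehicle rats and of 3.60, 3.93 and 2.97 in treated rats. The groups did not overlap, and the vehicle rats differed widely among themselves. The log2 difference was -1.21 (SE 0.35, limma adjusted p = 0.252), or -0.85 without vehicle rat 2. The clock gene Per1, also induced by aldosterone, differed by -0.74 (SE 0.55), and by -0.27 without vehicle rat 2. The mineralocorticoid receptor gene Nr3c2 differed by -0.08 (SE 0.11) and Atp1b1, the beta subunit gene of the sodium pump, by 0.11 (SE 0.08). With the slide row as a block limma called Kcnma1, a potassium channel gene, higher at 0.98 (adjusted p = 0.0174), a value that rests on treated rat 3 alone, against 0.25 (SE 0.31) over all arrays.

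Among 18 tested genes of collecting duct identity 14 were below 0, with a median of -0.14 (-0.12 and 14 of 18 within slide 1, -0.23 and 13 of 18 within row 1, and -0.20 and 14 of 18 with median scaling). Ehf, an ETS factor of epithelia, had a relative intensity of 0.202, 0.223 and 0.196 in vehicle rats and of 0.160, 0.158 and 0.140 in treated rats, without overlap, and a log2 difference of -0.44 (SE 0.09, limma adjusted p = 0.160), which was -0.28 with the normexp background correction. Elf5, an ETS factor made in principal cells, differed by -0.43 (SE 0.14, adjusted p = 0.300), or -0.25 with normexp, and the keratin gene Krt7 and Mal by -0.27 (SE 0.07) and -0.26 (SE 0.10). These 4 were the genes of the list below 0 at an unadjusted p under 0.05 (5.76% of all rows were lower at that level). Tfcp2l1, a transcription factor that patterns collecting duct cells, stood above 0, at 0.23 (SE 0.09, limma adjusted p = 0.350), with all treated rats above all vehicle rats. Of the list, Tfcp2l1 alone was above 0 at that unadjusted level (7.69% of all rows were higher). Krt19 had the largest difference, -1.29 (SE 0.85), and treated rat 3 read 0.0643 against 0.367 and 0.673 in the other treated rats. It was -0.30 within slide 1, without that rat, and -3.27 in row 1, where that rat is the treated array (adjusted p = 0.0346).

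Other genes of the same families were read as well. Of the 8 other aquaporin genes 3 were below 0, with a median of 0.05 (4 of 8 and -0.01 with median scaling, 2 of 8 and 0.15 without vehicle rat 2), Aqp9 having the largest difference at 0.63 (SE 0.31, adjusted p = 0.436) and Aqp11 the next at 0.27 (SE 0.21). The proximal tubule water channel gene Aqp1 differed by -0.10 (SE 0.13), treated rat 3 being low at 100.2 against 133 and 140 in the other treated rats. Of the 6 other FXYD genes, which encode small regulators of the sodium pump related to Fxyd4, 1 was below 0. Their median was 0.17 (0.12 without treated rat 3 and 0.24 without treated rat 2), on the other side of 0 from that of the members. As reported, these 2 medians were about equally far from 0. They were 0.11 against -0.23 with median scaling (all rows -0.04) and 0.13 against -0.20 with quantile scaling (all rows -0.02). Fxyd2, the gamma subunit of the pump, was at 145, 161 and 157 in vehicle rats and at 179, 183 and 183 in treated rats, without overlap, with a log2 difference of 0.24 (SE 0.07, limma adjusted p = 0.248). Fxyd3 differed by 0.22 (SE 0.22).

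**Figure D4:**
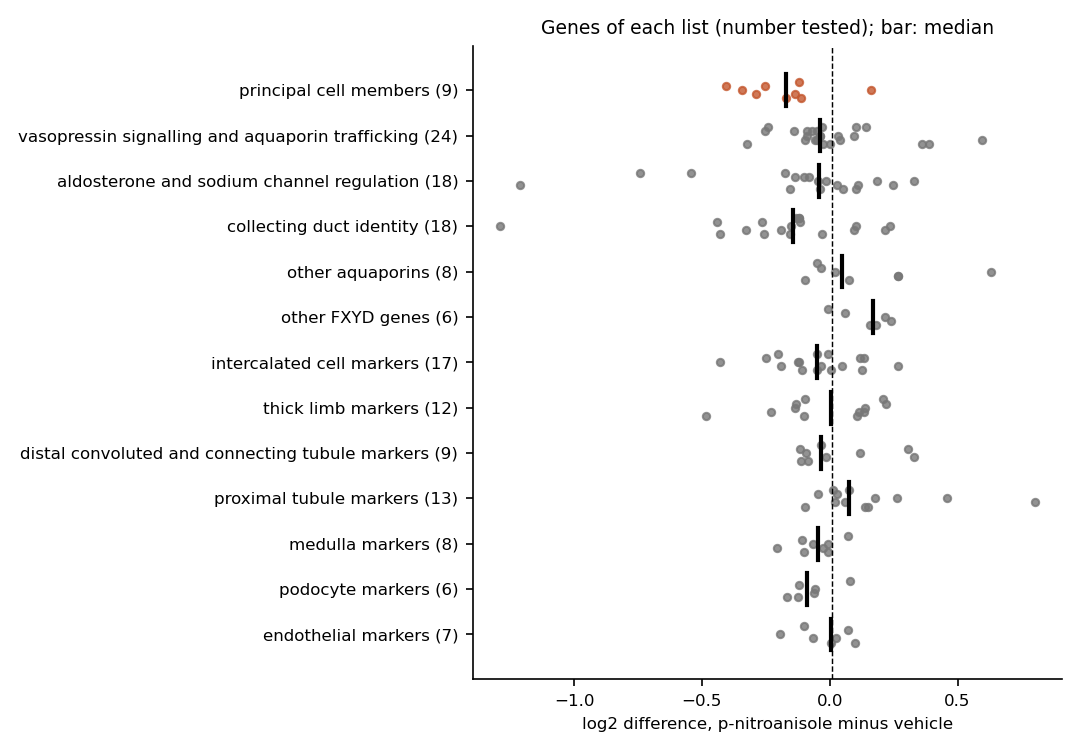
Log2 difference (horizontal axis) of each tested gene in the members' list (orange) and in 12 other lists (grey), with the number tested in brackets, a black bar at each list's median and a dashed line at the median of all 32197 rows. The members' median is -0.17 and that of collecting duct identity -0.14; that of the other FXYD genes is 0.17, and the other 10 lists have medians from -0.09 to 0.08.

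Markers of other kidney cells give the setting of these values. Intercalated cells, the acid-base cells that share the collecting duct with principal cells, had 17 tested markers, 11 of them below 0, with a median of -0.05. That median was 0.05 within slide 1 (7 of 17 below 0) and -0.21 within row 1. Foxi1, their master transcription factor, differed by -0.43 (SE 0.25), and the exchanger gene Slc4a9 by 0.27 (SE 0.09, adjusted p = 0.317). Thick limb markers had 6 of 12 below 0 and a median of 0.00 (8 of 12 and -0.08 without vehicle rat 1), with Cldn19, a tight junction gene, at -0.48 (SE 0.12, adjusted p = 0.219) and the calcium sensor Casr at -0.23 (SE 0.12). Distal convoluted and connecting tubule markers had 6 of 9 below 0 and a median of -0.03 (3 of 9 and 0.04 without vehicle rat 2), with Calb1 and S100g, both calcium-binding proteins, at 0.33 (SE 0.25) and 0.31 (SE 0.20). Pvalb was not well above background on any array.

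The medulla list, with the urea transporters and osmolyte genes that would mark deeper tissue in the dissection, was well above background in 8 of 8 genes on all arrays. Of these 7 were below 0, with a median of -0.05, Slc5a3 being at -0.21 (SE 0.11) and Nfat5 at -0.11 (SE 0.07). The count was not stable, with 4 of 8 below 0 without vehicle rat 2 or vehicle rat 3 (median 0.0033 without the latter) and 5 of 8 within slide 1, within row 1 and with normexp. Its summed relative intensity was 23.2 to 27.5 in vehicle rats and 23.3 to 23.7 in treated rats, and the collecting duct urea transporter gene Slc14a2 differed by -0.01 (SE 0.10). Such sums are weighted towards bright probes.

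Proximal tubule markers were above 0 in 11 of 13 genes, with a median of 0.08 and a summed relative intensity of 2204 to 2231 in vehicle rats and 2274 to 2392 in treated rats. With quantile scaling 7 of the 13 were above 0 and with median scaling 8 (medians over all rows -0.02 and -0.04), so this count depends on the scaling. It was 13 of 13 within slide 1 and 7 of 13 within row 1. The urate transporter gene Slc22a12 differed by 0.80 (SE 0.22, adjusted p = 0.233) and Gatm, an enzyme of creatine synthesis, by 0.46 (SE 0.15). Podocyte markers had 5 of 6 below 0, with a median of -0.09, or -0.05 and 4 of 6 without treated rat 2 (summed relative intensity 43.1 to 45.1 in vehicle and 38.7 to 46.6 in treated rats), Nphs1 at -0.17 (SE 0.10) and Wt1 at -0.12 (SE 0.12). Endothelial markers had 3 of 7 below 0, with a median of 0.00, or -0.04 and 5 of 7 without vehicle rat 1 (91.2 to 96.9 and 82.6 to 95.5), Emcn at -0.19 (SE 0.07) and Kdr at -0.10 (SE 0.07). The part of these cell types in the principal cell values was not tested.

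The genes most like the members in pattern were found by the root mean square difference, over the 6 arrays, between a gene's log2 profile and the mean profile of the 9 members, each centred on its own mean. The mean profile stood at -0.04, 0.19 and 0.13 in vehicle rats and -0.05, -0.15 and -0.07 in treated rats. The nearest of the named genes were Cox7a2l at 0.028, Tmem263 at 0.033, Cav2 at 0.037, Dapk1 at 0.039 and Tmem45b at 0.040. Their own log2 differences ran from -0.24 (Cav2) to -0.16 (Cox7a2l), and none was called by limma (adjusted p from 0.315 to 0.471). These genes were picked for closeness to that profile, so the direction and rough size of their differences follow from the selection.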

How the data were processed

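Per the file headers, each deposited file gives intensity per spot as written by Feature Extraction 10.7.1.1 of Agilent (10.7 in the submitters' processing notes), background-subtracted and not scaled between arrays; the array design names build rn4. The authors' deposited series matrix holds the same intensities as a ratio to 1 constant per array (constant to within 0.00988% over probes), with no centring; its column medians were 0.105 to 0.111. Control spots and 0 to 4 outlier spots per array were left out. Intensities were floored at 1, put on the log2 scale and centred on each array's 75th percentile. Accessions named 28206 of 61537 probes (45.84%) through a RefSeq table of GRCr8. A probe was tested where all 3 arrays of 1 or both groups read it well above background, taking the brightest per named gene, in limma 3.58.1 (R 4.3.3; lmFit, eBayes, two-sided). The procedure was tested on simulated data with 32197 rows. Of rows given a true difference, limma found 5 of 67 where its size was 0.5. It found 32 of 67 where the size was 1 and 60 of 66 where it was 2. It also called 3 rows given no difference. Most true differences of size 0.5 were thus missed in the simulation. Its rows were drawn independently and few of them were changed, and the share found depends on how many rows change. The members' measured differences, -0.41 to 0.16, were smaller in size than 0.5, so a member that was not called may still differ.

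The members and lists were chosen with earlier results of these data known. Named are all members, of each list the 2 largest differences and any called gene, and the 5 genes most alike in pattern; Prkar2a, Creb1, Gnas, Adcy6, Nr3c2, Atp1b1, Kcnma1, Elf5, Krt7, Mal, Tfcp2l1, Aqp1, Pvalb and Slc14a2 were named after their values were seen. The alternatives were other scalings, backgrounds, filters, probe rules, variance models, blocks and leaving out each array. The normexp correction, which used median spot signals, and the mean of a gene's probes were chosen after the files were seen.

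The series' design text calls the samples biological replicates. With 3 arrays per group, an exact permutation test cannot give a two-sided p below 0.1, and the number of arrays limits the precision.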

Additional observations from a re-analysis of the deposited data

How the results depend on the processing

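The count of rows called over all genes, 24 as reported, was 19 with quantile scaling, 20 with median scaling, 22 with the series matrix, 33 where all 6 arrays had to read a probe well above background and 30 with every probe as its own row. It moved further with normexp (82), with no filter (2), with the mean of each gene's probes (14), with a trended robust variance (316), with the slide as a block (9) and with the slide row as a block (1000). Without vehicle rats 1, 2 and 3 it was 1, 0 and 7, and without treated rats 1, 2 and 3 it was 0, 5 and 9, a range of 0 to 9 (at an unadjusted p under 0.05, limma gave 3262 rows without vehicle rat 2 and 3718 without treated rat 1). The cause of these moves was not tested. Of the members, 0 were called under every alternative except the trended robust variance, which called 1, Avpr2. The count of members below 0 was 7 with the mean of each gene's probes, where Aqp2 stood at 0.027, and without vehicle rat 2, where Scnn1a stood at 0.0095 (it was -0.37 without vehicle rat 1), and 8 under all the others. The median of the members ran from -0.26 (without treated rat 1) to -0.16.

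Replicate numbers did not pair the animals: deviations of same-numbered arrays correlated at -0.01, 0.04 and -0.01 over tested rows. With the replicate block 1 row was called, 0 members were called, and 8 of 9 members were below 0. With normexp the log2 difference of Aqp4 was 0.09 in place of 0.16 and that of Ehf -0.28 in place of -0.44.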
